A study of Arabidopsis thaliana with 24 samples.

Results

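The comparison is between seedlings of Arabidopsis thaliana that overexpress the long noncoding RNA ELENA1 (OX) and wild-type seedlings (WT), both of the Col-0 ecotype, 2 weeks old and given the peptide elf18 at 5 µM for 12 h. It rests on 6 of the 24 RNA sequencing libraries of the study, 3 biological replicates of OX and 3 of WT, chosen by genotype and time as labelled, and on every locus counted. The other libraries, OX and WT at 0 h, 1 h and 6 h, entered the same fit and are used to set the 12 h difference beside earlier ones. For treatment the seedlings went from plates into liquid medium that held the peptide, and no group was transferred without it, so in either genotype the peptide, the transfer and the hour of sampling cannot be told apart. The labels name neither the promoter driving ELENA1 nor how many transgenic lines were used, so an effect of the overexpressed RNA and one of a line or its insertion site cannot be told apart. The 3 replicates of a condition were multiplexed together. Whether OX and WT shared a pool is not stated here, and if they did not, genotype and pool cannot be told apart. ELENA1 itself was not analysed here. Of 21407 loci in the count table, 21015 had enough reads to be tested.

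Plants detect elf18, a fragment of bacterial elongation factor Tu, through the receptor kinase EFR and its co-receptor BAK1. The first layer of the response, within minutes to hours, is calcium influx, an oxidative burst, MAP kinase signalling and the transcription of early defence genes. A slower layer runs through salicylic acid, which is made mainly from isochorismate, is perceived by NPR1 and its relatives, and switches on the pathogenesis-related (PR) genes. ELENA1 is an RNA induced by elf18 that is known to bind a subunit of Mediator, the complex that links transcription factors to RNA polymerase II. The comparison asks how a seedling with more of this RNA differs late in the response. Whole seedlings hold roots as well as shoots, and in such bulk RNA fewer cells of a type and less RNA per cell cannot be told apart.

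The 12 h libraries held 18767661 to 85230211 counts in OX and 19450232 to 44905032 counts in WT. OX replicates 1 and 3 were unusually close: their counts differed by a median chi-square of 0.592 per gene, where counting noise alone gives 0.455, while every other replicate pair of the series gave 1.2 or more. They were kept as 2 samples because the labels state biological replicates, and results were also computed with their counts summed. A difference beyond counting noise does not show that they came from separate plants, which was not tested. The slope of log2 CPM (counts scaled to library size) on log2 transcript length ran from -0.083 to -0.022 in OX and from -0.292 to -0.144 in WT, so the groups did not overlap, with WT replicate 3 the steepest. With the trend removed, 0.916% of 20956 genes tested were higher in OX and 0.754% lower; where the number of calls in a gene group differs in that fit, its count or adjusted p stands beside it.

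At 12 h the overexpressor differed from wild type in a set of genes whose size depended on the fit. Those higher in OX include the salicylic acid marker PR1 and 9 cysteine-rich receptor-like kinases, and those lower include the root hair expansins EXPA7 and EXPA18 and the MADS-box gene MAF5. In edgeR's quasi-likelihood test 346 genes passed at an adjusted p under 0.05, which is 1.65% of those tested: 194 were higher in OX (0.923%) and 152 lower (0.723%). At least 2-fold differences were found for 64, of which 39 were higher and 25 lower. DESeq2 called 335 higher (1.59%) and 414 lower (1.97%). The 12 h libraries fitted alone in edgeR gave 1018 calls, 417 higher and 601 lower. The larger share of higher genes thus depends on the tool and on the libraries fitted. Below, every adjusted p is from the edgeR test with Benjamini-Hochberg adjustment over all genes tested unless DESeq2 is named, every fold change is log2 of OX over WT, n is 3 per group, and SE is the standard error. The median log2 fold change over all genes was 0.01. In 18.4% of all genes every OX library lay above every WT library, and in 16.1% every OX library lay below. The genes named for largest fold change were picked among calls without overlap. For them the absence of overlap was set by that choice and adds no support.

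The number of calls depended on single libraries. Leaving out OX replicate 1 gave 79 calls, OX replicate 2 gave 129, OX replicate 3 gave 121, WT replicate 1 gave 118, WT replicate 2 gave 146 and WT replicate 3 gave 102. In all 6 of these fits 56 of the 346 genes were called, 35 of them higher. With OX replicates 1 and 3 summed 120 genes were called, all among the 346, 65 higher (0.308%) and 55 lower (0.261%).

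**Figure D1:**
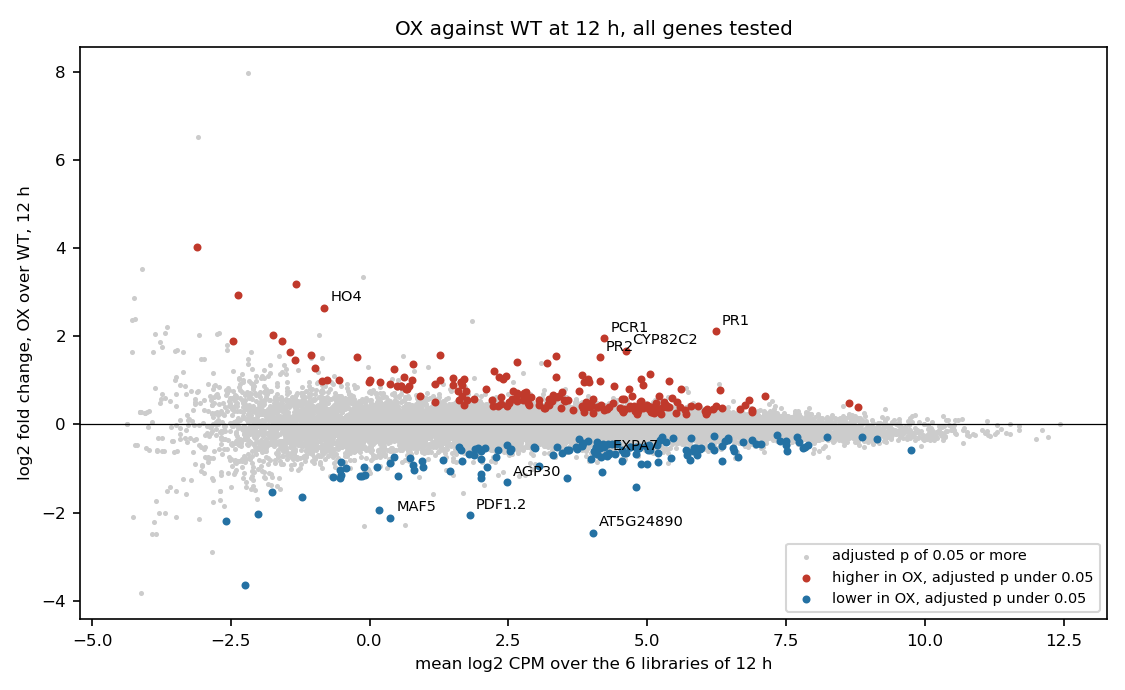
Log2 fold change of OX over WT at 12 h (y axis) against mean log2 CPM of the 6 libraries (x axis), 1 point per gene tested, with the 194 genes higher in OX, the 152 lower in OX and all other genes in separate colours. Called genes lie on both sides of 0, and most of them are within 2-fold.

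Upstream sequences are printed for 4 genes on which the account turns, a salicylic acid marker, a pair of root hair wall genes and a receptor kinase. They come from RefSeq's TAIR10.1 assembly, run 5′ to 3′ on the strand of the gene, and overlap no other annotated gene. Capitals mark, in PR1, CGTCA, the reverse complement of the TGACG core bound by TGA factors. In EXPA7 and RHS13 they mark the root hair element, and in CRK37 a pair of adjoining W-boxes, the core TTGACT or TTGACC bound by WRKY factors, here read as AGTCAA.
PR1, chr2:6243085-6243384, minus strand, bases -843 to -544 from the annotated start: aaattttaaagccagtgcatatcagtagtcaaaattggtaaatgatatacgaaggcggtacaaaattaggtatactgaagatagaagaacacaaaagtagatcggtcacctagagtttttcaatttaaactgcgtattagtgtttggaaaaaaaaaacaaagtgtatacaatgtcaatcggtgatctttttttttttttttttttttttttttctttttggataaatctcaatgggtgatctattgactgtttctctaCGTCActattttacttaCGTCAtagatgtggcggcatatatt
EXPA7, chr1:4276205-4276504, plus strand, bases -300 to -1: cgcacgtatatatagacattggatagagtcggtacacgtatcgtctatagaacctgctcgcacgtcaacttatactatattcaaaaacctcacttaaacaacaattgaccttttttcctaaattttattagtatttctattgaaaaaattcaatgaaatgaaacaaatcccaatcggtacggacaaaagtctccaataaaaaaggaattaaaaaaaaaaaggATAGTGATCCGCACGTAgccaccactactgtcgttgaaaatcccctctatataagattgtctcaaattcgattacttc
RHS13, chr4:993040-993339, minus strand, bases -300 to -1: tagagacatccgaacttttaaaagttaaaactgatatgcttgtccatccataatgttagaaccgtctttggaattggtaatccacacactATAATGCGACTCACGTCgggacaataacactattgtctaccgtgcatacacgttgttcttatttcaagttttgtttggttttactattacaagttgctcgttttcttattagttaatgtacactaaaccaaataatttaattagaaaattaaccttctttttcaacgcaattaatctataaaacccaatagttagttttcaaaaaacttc
CRK37, chr4:2238070-2238369, plus strand, bases -300 to -1: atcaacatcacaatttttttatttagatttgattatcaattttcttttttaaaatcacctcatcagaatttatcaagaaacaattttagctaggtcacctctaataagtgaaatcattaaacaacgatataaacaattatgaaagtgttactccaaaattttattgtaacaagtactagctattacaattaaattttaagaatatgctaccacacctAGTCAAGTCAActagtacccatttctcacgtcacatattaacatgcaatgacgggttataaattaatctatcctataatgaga

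In the 500 bases before the start, read on both strands, the root hair element matched in 3.09% of the 194 genes higher in OX, 5.26% of the 152 genes lower in OX and 1.53% of all 20955 genes with a window. TGACG was present before 37.6% of the higher genes, 30.9% of the lower genes and 33% of all genes. The PR1 matches printed above lie further upstream than these 500 bases, so PR1 does not count among the genes with TGACG. A W-box was present before 50.5% of the higher genes, 48% of the lower genes and 45.4% of all genes. Among the 40 cysteine-rich receptor-like kinase genes 77.5% had a W-box. These are matches of letters and do not show binding.

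PR1 and 3 other genes downstream of salicylic acid were higher in OX. Of 21 genes of salicylic acid perception and downstream defence 4 were higher and 0 lower in OX, with a median log2 fold change of 0.15. Over all genes 0.923% were higher and 0.723% lower. The 4 were PR1, PCR1, PR2 and PNP-A. PR1 (AT2G14610, chr2:6241640-6242541, minus strand), a small secreted protein and the standard readout of this pathway, had 178, 123 and 173 CPM in OX, against 32.6, 34.8 and 42.4 CPM in WT in replicates 1 to 3. Every OX library lay far above every WT library, and the fold change was 2.11 ± 0.28 (SE, adjusted p = 0.00025). The authors' deposited FPKM, 1 value per group without spread, was 259 in OX and 61.9 in WT. PCR1 (AT1G14880, chr1:5132506-5133860, minus strand), a membrane protein named for cadmium resistance, had 37.9, 37.3 and 36.8 CPM in OX, against 6.51, 12.2 and 10.4 CPM in WT. Its OX libraries were nearly equal and all above WT, with a fold change of 1.96 ± 0.29 (SE, adjusted p = 0.00086). PR1 and PCR1 passed in every fit that left out 1 of the 6 libraries.

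PR2, a beta-1,3-glucanase that attacks fungal cell walls, had 31.6, 24.4 and 34.4 CPM in OX, against 9.46, 9.19 and 13.1 CPM in WT. The groups were apart, and the fold change was 1.53 ± 0.33 (SE, adjusted p = 0.021). PNP-A, a secreted natriuretic peptide, had 32.7, 32.7 and 33.2 CPM in OX, against 18.4, 22.8 and 22.2 CPM in WT. It too showed no overlap, with 0.64 ± 0.13 (SE, adjusted p = 0.015). PR2 passed with 1 library fewer only without OX replicate 2 (otherwise adjusted p up to 0.088). PNP-A passed with 1 library fewer only without WT replicates 2 or 3 (otherwise adjusted p up to 0.088). PR5, a thaumatin-like protein, had 26.2, 27.0 and 27.4 CPM in OX, against 18.1, 21.6 and 20.09 CPM in WT. Its libraries did not overlap but it missed the threshold in the main fit (0.43 ± 0.15 SE, adjusted p = 0.13). With the 12 h libraries fitted alone PR5 passed the edgeR test (adjusted p = 0.015). The receptor gene NPR1 averaged 55.8 ± 0.702 CPM in OX and 52.6 ± 1.76 CPM in WT (SD, n = 3 each) and did not pass (adjusted p = 0.56).

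Among genes that make or turn over salicylic acid, those that passed the test were turnover genes. Of 13 genes of synthesis, conjugation and turnover 2 were higher and 0 lower in OX, where 0.923% of all genes were higher and 0.723% lower. The median log2 fold change of the 13 was 0.07. Both higher genes, DLO1 and DMR6, encode hydroxylases that turn over salicylic acid. DLO1 had 30.1, 25.7 and 30.6 CPM in OX, against 19.7, 15.8 and 22.3 CPM in WT, with 0.58 ± 0.14 (SE, adjusted p = 0.035), and DMR6 had 133, 117 and 132 CPM in OX, against 93.3, 91.5 and 94.7 CPM in WT, with 0.45 ± 0.11 (SE, adjusted p = 0.039). In each gene the lowest OX library was above the highest WT library. ICS1, the isochorismate synthase of the main route, averaged 260.5 ± 14.8 CPM in OX and 219 ± 23.3 CPM in WT (SD, n = 3 each) and did not pass (adjusted p = 0.23). In the pathway of N-hydroxypipecolic acid, a mobile signal of systemic acquired resistance, 1 was higher and 0 lower in OX, of 7 tested. The higher gene was ALD1, the aminotransferase of the first step, with 7.61, 6.91 and 7.03 CPM in OX, against 3.40, 3.32 and 3.58 CPM in WT (1.07 ± 0.23 SE, adjusted p = 0.018). DMR6 and ALD1 passed in none of the fits that left out 1 library, with an adjusted p of up to 0.15 and 0.088 in that order. DLO1 passed with 1 library fewer only without WT replicate 3 (otherwise adjusted p up to 0.14).

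Receptor kinase genes had many small positive differences. Of 40 cysteine-rich receptor-like kinases (CRKs), membrane kinases with DUF26 domains that pathogens and salicylic acid induce, 9 were higher and 0 lower in OX, with a median log2 fold change of 0.30. Over all genes 0.923% were higher and 0.723% lower. The fold change was positive in 39 of the 40 CRKs, against 10759 of all 21015 genes. In 32 CRKs every OX library lay above every WT library, as it did for 18.4% of all genes tested. CRK37 (chr4:2238370-2240921, plus strand) had 4.54, 4.85 and 4.29 CPM in OX, against 1.897, 2.52 and 2.35 CPM in WT, a fold change of 1.04 ± 0.19 (SE, adjusted p = 0.0072). CRK7 had 21.9, 21.3 and 22.3 CPM in OX, against 10.7, 11.1 and 10.3 CPM in WT, a fold change of 1.02 ± 0.21 (SE, adjusted p = 0.015). Both were clear of overlap and tight within groups. CRK4 stood at 1.27 ± 0.27 and CRK16 at 1.00 ± 0.22 (SE, adjusted p = 0.017 and 0.019), and CRK6, CRK8, CRK45, CRK24 and CRK34 from 0.43 to 0.96. CRK6, CRK7 and CRK8 lie side by side (chr4:12121369-12134209, plus strand) and are close paralogs, so their reads may be shared. CRK37 lost its call without WT replicate 1 (adjusted p up to 0.064). CRK7 passed with 1 library fewer only without OX replicate 2 (otherwise adjusted p up to 0.066). CRK4 passed with 1 library fewer only without OX replicate 3 or WT replicate 2 (otherwise adjusted p up to 0.12). CRK16 passed with 1 library fewer only without OX replicate 1 or WT replicate 1 (otherwise adjusted p up to 0.19). Without WT replicate 3 (0.256% of all genes higher), 1 CRK was called, with the median at 0.24, and with OX replicates 1 and 3 summed (0.308% of all genes higher) 3 were. Removing the length trend left 8 CRKs called, without CRK34.

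Intracellular immune receptors had small positive differences. Of 20 sensor receptors 3 were higher and 0 lower in OX, where 0.923% of all genes were higher and 0.723% lower. Their median log2 fold change was 0.31. All 20 fold changes were positive, against 10759 of 21015 over all genes. With the length trend removed 1 was called, WRR4, and the median was 0.11. SNC1, a TIR-class receptor known from an autoactive allele, had 137, 129 and 134 CPM in OX, against 106, 105 and 106 CPM in WT (0.34 ± 0.08 SE, adjusted p = 0.035, and 0.58 with the length trend removed). WRR4, a receptor for white rust, had 35.6, 36.1 and 34.0 CPM in OX, against 26.0, 26.6 and 21.0 CPM in WT (0.51 ± 0.11 SE, adjusted p = 0.017). LOV1, which confers sensitivity to the toxin victorin, averaged 7.48 ± 0.536 CPM in OX and 5.17 ± 0.127 CPM in WT (SD, n = 3 each) and had 0.52 ± 0.12 (SE, adjusted p = 0.022), with an adjusted p of 0.068 with the length trend removed. No library of OX overlapped WT in these 3 genes. LOV1 and SNC1 passed in none of the fits that left out 1 library, with an adjusted p of up to 0.092 and 0.14 in that order. WRR4 lost its call without OX replicates 1 or 2 or WT replicate 3 (adjusted p up to 0.12). Of 11 genes of the EDS1 family and helper receptors, which relay these signals, 1 was higher and 0 lower in OX: SGT1A, a co-chaperone of immune receptors, at 0.29 ± 0.07 (SE, adjusted p = 0.044). EDS1 averaged 108 ± 1.91 CPM in OX and 89.4 ± 2.28 CPM in WT (SD, n = 3 each) and lay just outside the threshold (adjusted p = 0.051). SGT1A passed in none of the fits that left out 1 library (adjusted p up to 0.16).

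At the cell surface the elf18 receptor itself did not pass. EFR averaged 47.6 ± 2.67 CPM in OX and 47.2 ± 1.01 CPM in WT (SD, n = 3 each), a fold change of 0.01 ± 0.08 (SE, adjusted p = 0.95). Of 21 pattern receptors and co-receptors 1 was higher and 0 lower in OX, with a median log2 fold change of 0.03: RLP23, the receptor protein for the nlp20 peptide, had 19.8, 22.5 and 22.3 CPM in OX, against 10.1, 12.1 and 11.0 CPM in WT. Its OX libraries were all above WT, at 0.96 ± 0.21 (SE, adjusted p = 0.018). Of 27 immune kinases, oxidases and calcium genes 1 was higher and 0 lower in OX, the calcium channel gene CNGC20, at 0.43 ± 0.09 (SE, adjusted p = 0.02). Of 17 Mediator subunit genes 1 was higher and 0 lower in OX: MED19A, the subunit that ELENA1 is known to bind, had 30.2, 31.4 and 29.8 CPM in OX, against 25.1, 25.3 and 23.56 CPM in WT (0.31 ± 0.06 SE, adjusted p = 0.01), without overlap. Over all genes 0.923% were higher and 0.723% lower, so 1 call says little about any of these lists. RLP23 passed with 1 library fewer only without WT replicate 2 (otherwise adjusted p up to 0.086). CNGC20 passed with 1 library fewer only without WT replicate 2 (otherwise adjusted p up to 0.13). MED19A lost its call without OX replicate 2 or WT replicate 3 (adjusted p up to 0.066).

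ATL6 and ZAT6, both early marker genes of elf18 and flg22, were lower in OX. Of 29 such genes 0 were higher and 2 lower in OX, with a median log2 fold change of -0.23; of all genes 0.923% were higher and 0.723% lower, so at this size 0 higher calls is near the background. ATL6, a ubiquitin ligase of the early response, had 82.2, 69.8 and 81.5 CPM in OX, against 109, 103 and 126 CPM in WT (-0.53 ± 0.13 SE, adjusted p = 0.035), and ZAT6, a zinc finger repressor, had 42.0, 38.9 and 42.5 CPM in OX, against 64.8, 71.5 and 79.6 CPM in WT (-0.81 ± 0.20 SE, adjusted p = 0.041). In both genes all OX libraries lay below WT. ATL6 and ZAT6 passed in none of the fits that left out 1 library, with an adjusted p of up to 0.2 and 0.19 in that order. FRK1, a receptor kinase gene used as the marker of this response, averaged 702 ± 6.97 CPM in OX and 552 ± 41.9 CPM in WT (SD, n = 3 each) and did not pass (adjusted p = 0.43). Of 14 WRKY factor genes of groups IIa and III 0 were higher and 0 lower in OX, with a median log2 fold change of -0.01. For this list too, 0 calls is near the background. The member of widest difference with a mean log2 CPM of at least 1 was WRKY46, at 0.31 ± 0.27 (SE, adjusted p = 0.52).

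Outside the salicylic acid pathway, defence metabolism and hormone lists held 0 to 3 calls each. With 1.65% of all genes called, a list of this size with 0 calls is near the background, and 1 call says little about the list. Of 31 genes of camalexin and indole compounds 1 was higher and 0 lower in OX: CYP82C2, a P450 of the 4-hydroxyindole branch, had 43.4, 46.4 and 41.9 CPM in OX, against 14.8, 13.2 and 13.2 CPM in WT. Each OX library was far above WT, at 1.68 ± 0.32 (SE, adjusted p = 0.0082). Of 28 ethylene genes 0 were higher and 1 lower in OX, with a median log2 fold change of -0.20: PDF1.2, a defensin induced by jasmonate with ethylene, had 1.501, 1.88 and 1.72 CPM in OX, against 8.69, 6.69 and 5.71 CPM in WT, which puts every OX library far below WT, at -2.06 ± 0.40 (SE, adjusted p = 0.0087). Of 27 jasmonate genes 0 were higher and 0 lower in OX, with a median log2 fold change of -0.06, with TAT3 at 0.91 ± 0.50 (SE, adjusted p = 0.3). With the 12 h libraries fitted alone TAT3 passed the edgeR test (adjusted p = 0.0029). Of 18 berberine bridge enzyme-like genes 1 was higher and 0 lower in OX: AT1G26390 had 52.7, 72.6 and 51.8 CPM in OX, against 26.9, 31.3 and 31.9 CPM in WT (0.98 ± 0.22 SE, adjusted p = 0.024), again without overlap. CYP82C2 passed in every fit that left out 1 of the 6 libraries. PDF1.2 lost its call without OX replicate 1 or WT replicate 1 (adjusted p up to 0.067). AT1G26390 passed with 1 library fewer only without OX replicate 3 (otherwise adjusted p up to 0.15).

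Of 17 phenylpropanoid genes 0 were higher and 3 lower in OX, with a median log2 fold change of -0.23. The 3 were phenylalanine ammonia-lyases, the entry enzymes of the pathway: PAL2 at -0.29 ± 0.07 (SE, adjusted p = 0.044), PAL3 at -0.43 ± 0.10 (SE, adjusted p = 0.033) and PAL4 at -0.58 ± 0.15 (SE, adjusted p = 0.042). PAL2 had 431, 406 and 424 CPM in OX, against 526, 477 and 542 CPM in WT, so the groups lay close but apart. PAL3 passed in none of the fits that left out 1 library, with an adjusted p of up to 0.13. PAL2 passed with 1 library fewer only without WT replicate 2 (otherwise adjusted p up to 0.21). PAL4 passed with 1 library fewer only without WT replicate 2 (otherwise adjusted p up to 0.3). Of 15 flavonoid genes 0 were higher and 1 lower in OX, with a median log2 fold change of -0.37, the MYB activator gene PAP2 at -1.03 ± 0.23 (SE, adjusted p = 0.026); of 32 detoxification genes 0 were higher and 1 lower in OX, with a median log2 fold change of -0.19, the glutathione transferase gene GSTU25 at -1.14 ± 0.28 (SE, adjusted p = 0.042) (adjusted p = 0.063 with the length trend removed). GSTU25 passed in none of the fits that left out 1 library, with an adjusted p of up to 0.14. PAP2 passed with 1 library fewer only without OX replicate 2 (otherwise adjusted p up to 0.15). No gene passed among 18 aliphatic glucosinolate, 30 photosystem, 18 Calvin cycle, 24 clock, 32 auxin, 23 cell cycle, 19 endoplasmic reticulum and 13 mitochondrial stress genes. With 1.65% of all genes called, 0 calls in lists of this size is near the background. When the 12 h libraries were fitted alone, 1 endoplasmic reticulum gene was higher in OX. In that fit 3 Calvin cycle, 3 auxin and 2 mitochondrial stress genes were lower. It called 417 of all genes higher and 601 lower. Among members with a mean log2 CPM of at least 1, those of widest difference were GSTF11 (-0.29), PSBR (-0.33), CA1 (-0.52), PRR3 (0.40), IAA19 (-0.40), CYCB2;3 (0.32), CRT3 (0.37) and DIC2 (-0.61). With the length trend removed, 2 auxin genes were called lower, the amido synthetase gene GH3.3 and the auxin influx carrier gene LAX2, and the photosystem median was -0.02, against -0.11 without that step.

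**Figure D2:**
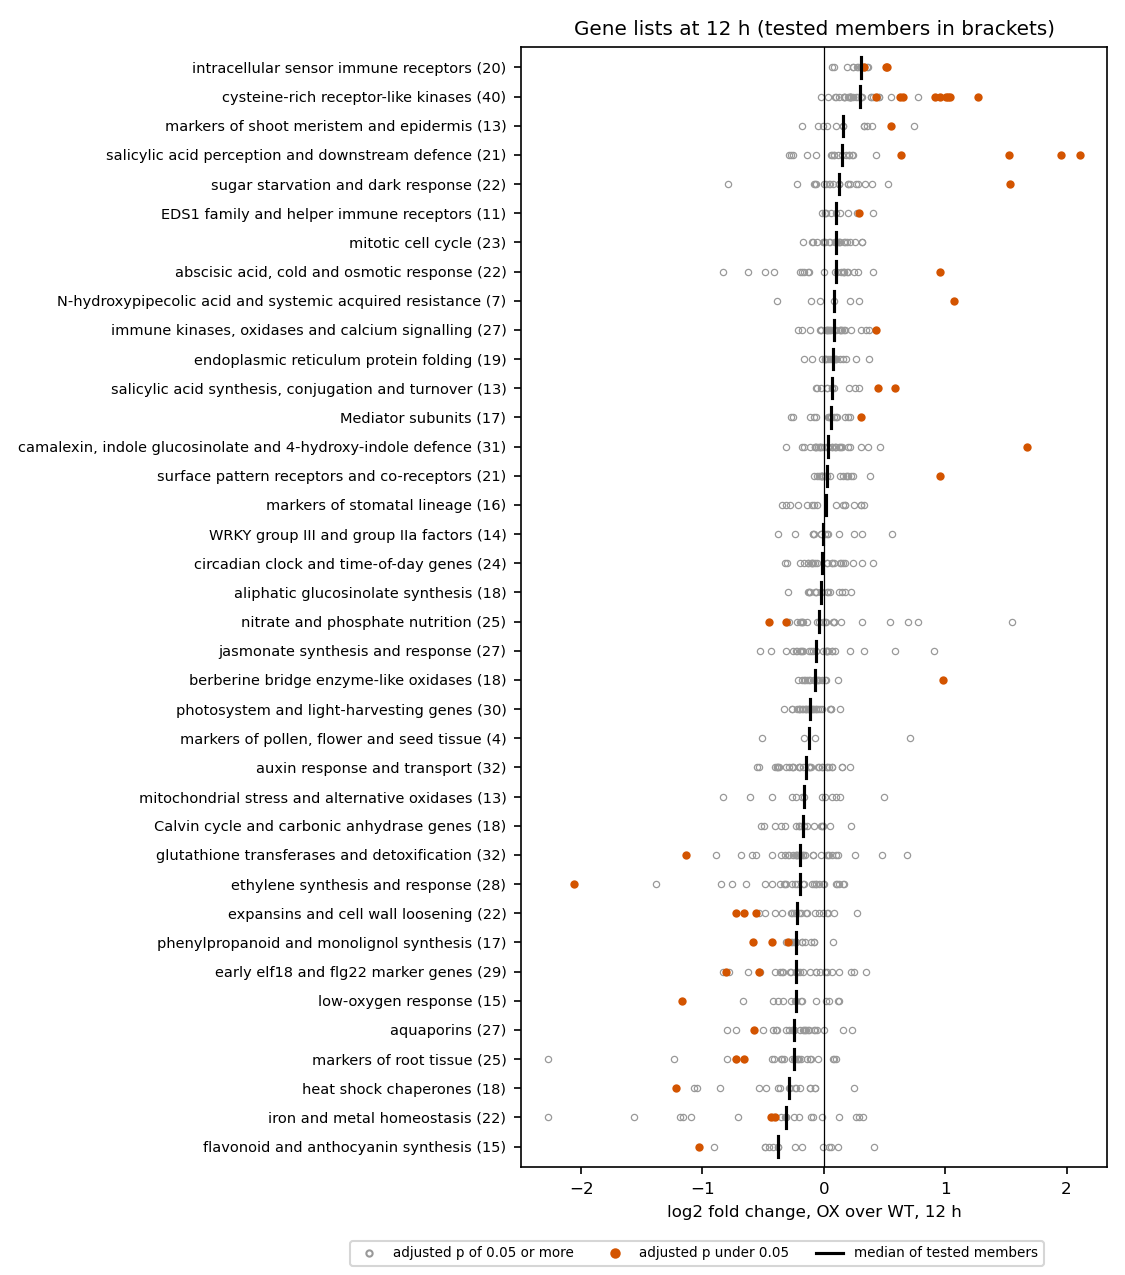
Log2 fold change of OX over WT at 12 h for each tested member of the 38 gene lists, 1 row per list, with filled points at an adjusted p under 0.05 and a bar at the list's median. Called CRK genes lie right of 0, and called expansin, phenylpropanoid and root marker genes lie left of 0.

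EXPA7 and EXPA18, wall-loosening genes of root hairs, were lower in OX. Expansins and xyloglucan endotransglucosylases (XTHs) loosen or rebuild the wall so that cells can extend. Of 22 such genes 0 were higher and 3 lower in OX, with a median log2 fold change of -0.22. Over all genes 0.923% were higher and 0.723% lower. EXPA7 (AT1G12560, chr1:4276505-4277969, plus strand), an expansin of root hairs, had 15.5, 14.5 and 14.9 CPM in OX, against 25.1, 23.7 and 25.6 CPM in WT, a fold change of -0.73 ± 0.12 (SE, adjusted p = 0.0027). EXPA18, a second root hair expansin, had 19.0, 18.18 and 19.96 CPM in OX, against 28.9, 26.7 and 34.5 CPM in WT, a fold change of -0.65 ± 0.12 (SE, adjusted p = 0.0042). In both genes all OX libraries were below all WT libraries. XTH17 was at -0.56 ± 0.13 (SE, adjusted p = 0.035). EXPA7 and EXPA18 passed in every fit that left out 1 of the 6 libraries. XTH17 passed with 1 library fewer only without WT replicate 2 (otherwise adjusted p up to 0.16).

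Both expansins are also root markers, and of 25 root markers 0 were higher and 2 lower in OX, with a median log2 fold change of -0.25. The shares over all genes were 0.923% higher and 0.723% lower. Summed over this list the level was 282.5 to 290.7 CPM in OX and 317 to 335 CPM in WT, without overlap. The sum is not independent of the 2 expansins, which it includes. EXPA7 averaged 15.0 CPM in OX and 24.8 CPM in WT, and EXPA18 19.0 CPM in OX and 30.0 CPM in WT. Of the 25 markers 0 were at 0 in all libraries. The part of root content in the lower genes was not tested. The other marker sums overlapped: 271 to 279 CPM in OX and 263 to 285 CPM in WT for 16 stomatal genes, 430 to 448 CPM in OX and 416 to 439 CPM in WT for 13 meristem and epidermis genes, and 4.24 to 5.65 CPM in OX and 4.96 to 6.66 CPM in WT for 5 pollen, flower and seed genes. STM, the homeobox gene of the shoot meristem, was the only call in those 3 lists, at 0.56 ± 0.12 (SE, adjusted p = 0.017). TMM (-0.34) and SEP3 (-0.16) did not pass. STM passed with 1 library fewer only without OX replicate 3 or WT replicate 3 (otherwise adjusted p up to 0.097).

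Whole families were then read by symbol or annotation, a step chosen after values were seen, and the members named here were likewise chosen after their values were seen unless named above. The counts of each family are to be set beside the shares over all genes, 0.923% higher and 0.723% lower. Over all 21015 genes 10759 fold changes were positive. Of 18 genes named root hair specific (RHS) 0 were higher and 2 lower in OX, with a median log2 fold change of -0.22, and 16 were negative. RHS13 (chr4:992111-993039, minus strand), a proline-rich wall protein gene, had 45.2, 47.0 and 46.6 CPM in OX, against 70.9, 68.7 and 71.2 CPM in WT, a fold change of -0.60 ± 0.09 (SE, adjusted p = 0.0012). RHS18, a peroxidase gene, had 21.2, 17.7 and 20.01 CPM in OX, against 33.2, 29.0 and 30.1 CPM in WT, a fold change of -0.65 ± 0.11 (SE, adjusted p = 0.0024). Neither gene showed any overlap. The root hair element was found before 12 of the 18 RHS genes (66.7%). Whether these genes were first picked with that element is not given in the sources used here. The share is therefore no evidence about the 12 h difference. RHS13 and RHS18 passed in every fit that left out 1 of the 6 libraries.

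Of 30 XTH genes 0 were higher and 6 lower in OX, with a median log2 fold change of -0.24. Over all genes 0.923% were higher and 0.723% lower. XTH12 had 24.2, 21.8 and 24.4 CPM in OX, against 43.0, 39.5 and 47.8 CPM in WT (-0.89 ± 0.13 SE, adjusted p = 0.00047), and XTH14 had 62.1, 56.4 and 64.3 CPM in OX, against 92.6, 82.4 and 96.0 CPM in WT (-0.57 ± 0.09 SE, adjusted p = 0.00086). In each the OX libraries lay below WT. The other 4 were XTH5, XTH13, XTH17 and XTH26. Of 18 alpha expansins 0 were higher and 4 lower in OX, with a median log2 fold change of -0.20; beside EXPA7 and EXPA18 these were EXPA12 at -1.06 ± 0.17 (SE, adjusted p = 0.0024) and EXPA9 at -0.46 ± 0.09 (SE, adjusted p = 0.0098). XTH12, XTH14 and EXPA12 passed in every fit that left out 1 of the 6 libraries. EXPA9 lost its call without OX replicate 1 or WT replicate 3 (adjusted p up to 0.066).

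Of 64 genes annotated as class III peroxidases, secreted enzymes that use peroxide in the wall, 0 were higher and 8 lower in OX, with a median log2 fold change of -0.12; RHS18 is annotated by its RHS name and is not counted here. Over all genes 0.923% were higher and 0.723% lower, and with the length trend removed 0.916% and 0.754%. Removing that trend left 1 peroxidase gene higher and 6 lower. AT4G26010 had 51.3, 50.8 and 53.2 CPM in OX, against 78.4, 69.7 and 77.5 CPM in WT (-0.54 ± 0.07 SE, adjusted p = 0.00037), without overlap. Of 30 arabinogalactan protein genes 0 were higher and 3 lower in OX, with a median log2 fold change of -0.31: AGP30 had 3.36, 3.77 and 3.27 CPM in OX, against 9.12, 7.70 and 9.46 CPM in WT (-1.31 ± 0.26 SE, adjusted p = 0.013), also without overlap, and AGP2 and AGP3 were at -0.44 and -0.48. In the fit without the length trend AGP30 was the 1 call left, and the family's median was -0.20. AT4G26010 passed in every fit that left out 1 of the 6 libraries. AGP2 passed in none of the fits that left out 1 library, with an adjusted p of up to 0.1. AGP30 lost its call without OX replicate 1 or WT replicate 1 (adjusted p up to 0.073). AGP3 passed with 1 library fewer only without OX replicate 3 or WT replicate 1 (otherwise adjusted p up to 0.078). Without WT replicate 3 the lower calls were 2 RHS, 3 XTH, 3 expansin, 4 peroxidase and 1 arabinogalactan protein genes, where 0.228% of all genes were lower.

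Of 10 NF-YA genes, which encode the CCAAT-binding subunit of the factor NF-Y, 3 were higher and 0 lower in OX. Their median log2 fold change was 0.45. The shares over all genes were 0.923% higher and 0.723% lower. NF-YA2 had 17.5, 16.8 and 19.3 CPM in OX, against 11.0, 11.2 and 8.95 CPM in WT, a fold change of 0.76 ± 0.13 (SE, adjusted p = 0.0028). NF-YA3 was at 0.64 ± 0.11 (SE, adjusted p = 0.003) and NF-YA10 at 0.88 ± 0.21 (SE, adjusted p = 0.035). NF-YA2 and NF-YA3 passed in every fit that left out 1 of the 6 libraries. NF-YA10 passed in none of the fits that left out 1 library, with an adjusted p of up to 0.17. Of 18 glutamate receptor-like genes 2 were higher and 0 lower in OX, with a median log2 fold change of 0.15, and of 17 cyclic nucleotide-gated channel genes 3 were higher and 0 lower in OX, with a median log2 fold change of 0.19. Once the length trend was removed, 1 glutamate receptor-like gene and 1 channel gene were called higher, with medians of 0.02 and 0.10. GLR1.4 was at 0.66 ± 0.11 (SE, adjusted p = 0.0024), and it passed in every fit that left out 1 of the 6 libraries.

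Some large families had medians that came closer to 0 with the length trend removed. The shares over all genes were 0.923% higher and 0.723% lower, with 10759 of 21015 fold changes positive. Of 92 TIR-class resistance genes 5 were higher and 0 lower in OX, with a median log2 fold change of 0.28, and 83 were positive. Of 25 CC-class genes 1 was higher and 0 lower in OX, with a median log2 fold change of 0.24. Without that trend 4 TIR-class and 0 CC-class genes were called, with medians of 0.11 and 0.11. Of 47 receptor-like protein genes 3 were higher and 0 lower in OX, with a median log2 fold change of 0.27; the median was 0.16 with the length trend removed. Without WT replicate 3 (0.256% of all genes higher) 0 receptor-like protein, 1 TIR-class and 0 CC-class genes were called. Of 32 jacalin lectin genes 2 were higher and 2 lower in OX, with a median log2 fold change of 0.16. Of 322 ribosomal protein genes 0 were higher and 4 lower in OX, the latter not far above the share over all genes. Their median log2 fold change was -0.19, and 293 were negative. With the trend removed 1 was lower and the median was -0.09.

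**Figure D3:**
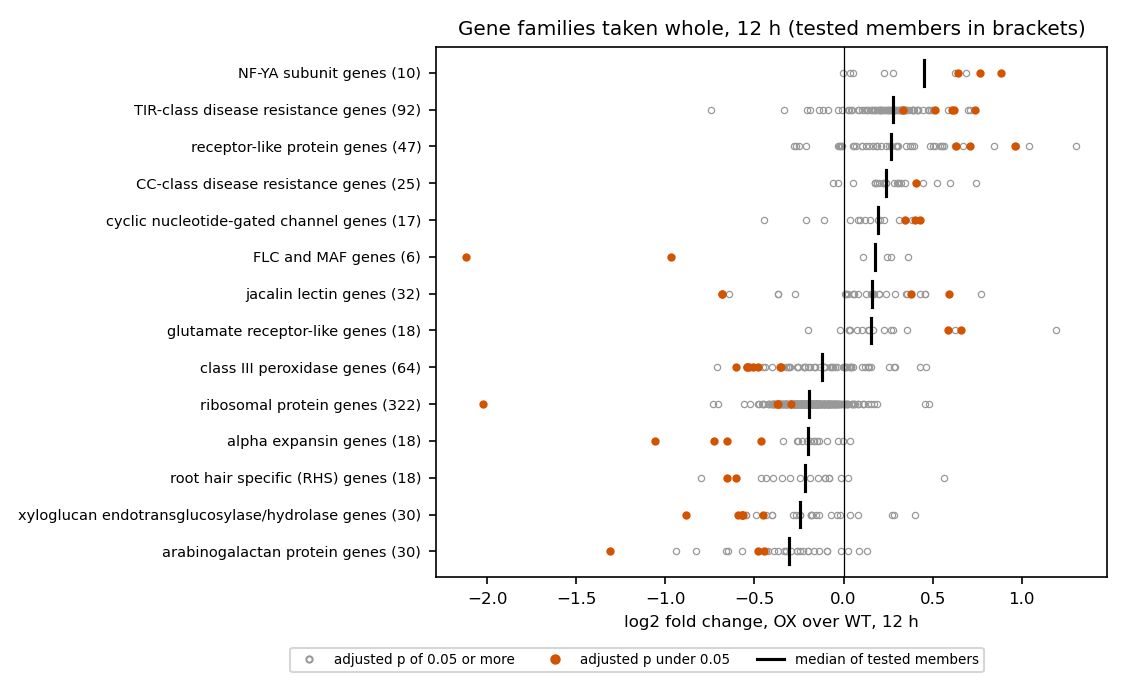
Log2 fold change of OX over WT at 12 h for each tested member of 14 gene families, 1 row per family, with filled points at an adjusted p under 0.05 and a bar at the median. MAF5 lies far left of its relatives, and the called RHS, XTH, expansin and peroxidase genes lie left of 0.

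Nutrient and stress lists held 1 or 2 calls each, where 0.923% of all genes were higher and 0.723% lower. Of 22 iron genes 0 were higher and 2 lower in OX, with a median log2 fold change of -0.31: the transporter gene OPT3 at -0.40 ± 0.09 (SE, adjusted p = 0.02) and the nicotianamine synthase gene NAS4 at -0.43 ± 0.11 (SE, adjusted p = 0.039). IRT1, the root iron importer, averaged 0.703 ± 0.455 CPM in OX and 3.74 ± 1.63 CPM in WT (SD, n = 3 each) and did not pass (adjusted p = 0.079). Of 25 nitrate and phosphate genes 0 were higher and 2 lower in OX, with a median log2 fold change of -0.04: the nitrogen-response repressor gene LBD37 at -0.45 ± 0.10 (SE, adjusted p = 0.026) and the phosphate transporter gene PHT1;1 at -0.31 ± 0.08 (SE, adjusted p = 0.047). In the fit without the length trend NAS4 had an adjusted p of 0.053, and the phosphate starvation RNA gene IPS1 was called higher (adjusted p = 0.026, against 0.068 with the trend kept). NAS4 and PHT1;1 passed in none of the fits that left out 1 library, with an adjusted p of up to 0.15 and 0.15 in that order. OPT3 lost its call without OX replicates 1 or 3 or WT replicate 3 (adjusted p up to 0.12). LBD37 passed with 1 library fewer only without WT replicate 1 (otherwise adjusted p up to 0.14).

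Of 27 aquaporins 0 were higher and 1 lower in OX, with a median log2 fold change of -0.24 (TIP4;1, -0.57), of 18 heat shock chaperones 0 were higher and 1 lower in OX, with a median log2 fold change of -0.28 (AT1G53540, -1.22), and of 15 low-oxygen genes 0 were higher and 1 lower in OX, with a median log2 fold change of -0.23 (the ethylene response factor gene HRE2, -1.17). Of 22 abscisic acid and cold genes 1 was higher and 0 lower in OX, with a median log2 fold change of 0.10 (the cold-induced gene KIN1, 0.96). Of 22 sugar starvation genes 1 was higher and 0 lower in OX, with a median log2 fold change of 0.13: DIN2, a dark-induced glucosidase gene, had 0.968, 1.74 and 1.34 CPM in OX, against 0.434, 0.451 and 0.616 CPM in WT (1.53 ± 0.27 SE, adjusted p = 0.0048), without overlap. TIP4;1, AT1G53540, HRE2 and KIN1 passed in none of the fits that left out 1 library, with an adjusted p of up to 0.13, 0.17, 0.21 and 0.088 in that order. DIN2 lost its call without OX replicate 2 or WT replicate 1 (adjusted p up to 0.069). The adjusted p with the length trend removed was 0.074 for AT1G53540 and 0.051 for HRE2.

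The smallest adjusted p of all belonged to AT5G24890 (chr5:8557737-8559488, minus strand), a protein gene of unknown function. It had 6.498, 7.64 and 6.49 CPM in OX, against 37.1, 37.6 and 39.8 CPM in WT, a fold change of -2.45 ± 0.22 (SE, adjusted p = 2.8e-06). MAF5 (chr5:25997504-26002619, plus strand), a MADS-box gene related to the flowering repressor FLC, had 0.691, 0.551 and 0.536 CPM in OX, against 2.45, 2.87 and 2.46 CPM in WT, a fold change of -2.12 ± 0.20 (SE, adjusted p = 3.6e-06). In both genes every OX library was far below every WT library. MAF4, the neighbour of MAF5 (chr5:25992193-25996202, plus strand), had 1.72, 1.26 and 1.07 CPM in OX, against 2.77, 2.87 and 2.46 CPM in WT (-0.97 ± 0.21 SE, adjusted p = 0.022). The other 4 genes of the family did not pass: FLC was at 0.36, MAF1 at 0.11, AGL31 (MAF2) at 0.25 and MAF3 at 0.27. AT5G24890 and MAF5 passed in every fit that left out 1 of the 6 libraries. MAF4 passed with 1 library fewer only without OX replicate 1 (otherwise adjusted p up to 0.13).

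Among higher genes outside the lists, AT1G04280, annotated as a P-loop nucleoside triphosphate hydrolase, had 41.4, 42.4 and 40.5 CPM in OX, against 22.1, 21.3 and 23.7 CPM in WT, a fold change of 0.89 ± 0.09 (SE, adjusted p = 3.6e-06). MLP328, a major latex protein-like gene, had 14.6, 15.2 and 14.9 CPM in OX, against 7.04, 7.38 and 6.71 CPM in WT, a fold change of 1.08 ± 0.11 (SE, adjusted p = 6.4e-06). Spread within groups was small in both, with no overlap. AT5G37990, annotated as a methyltransferase, was at 1.21 ± 0.13 (SE, adjusted p = 8.8e-06) and AT3G10630, annotated as a glycosyltransferase, at 1.02 ± 0.11 (SE, adjusted p = 2.1e-05). AT5G52390 (1.58), AT3G28510 (1.56), AT3G61280 (1.41), the U-box gene PUB54 (1.40), the senescence-associated gene SAG13 (1.14), the ankyrin repeat gene AT4G03450 (1.11) and the aspartyl protease gene AT5G10760 (1.12) were also higher. AT1G04280, MLP328, AT5G37990, AT3G10630, AT5G52390, AT3G28510, AT3G61280, PUB54, SAG13 and AT4G03450 passed in every fit that left out 1 of the 6 libraries. AT5G10760 passed with 1 library fewer only without OX replicate 2 (otherwise adjusted p up to 0.086). HO4, a heme oxygenase gene named after its values were seen, had 1.36, 1.37 and 1.23 CPM in OX, against 0.206, 0.266 and 0.112 CPM in WT (2.65 ± 0.32 SE, adjusted p = 5.8e-05), the OX libraries being far above WT.

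Among lower genes outside the lists were AT2G30766 (-1.42), AT1G47400 (-1.22) and AT1G47395 (-1.09), annotated as of unknown function, the aspartyl protease gene AT5G19110 (-0.97), RTFL12 (-0.93), a small peptide gene, and AT4G04745 (-0.89). Their calls depended on single libraries, and AT5G19110 had an adjusted p of 0.056 with the length trend removed. AT2G30766, AT5G19110 and RTFL12 passed in none of the fits that left out 1 library, with an adjusted p of up to 0.12, 0.17 and 0.1 in that order. AT1G47400 passed with 1 library fewer only without WT replicates 2 or 3 (otherwise adjusted p up to 0.088). AT1G47395 passed with 1 library fewer only without OX replicate 2 (otherwise adjusted p up to 0.11). AT4G04745 passed with 1 library fewer only without WT replicate 2 (otherwise adjusted p up to 0.13).

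**Figure D4:**
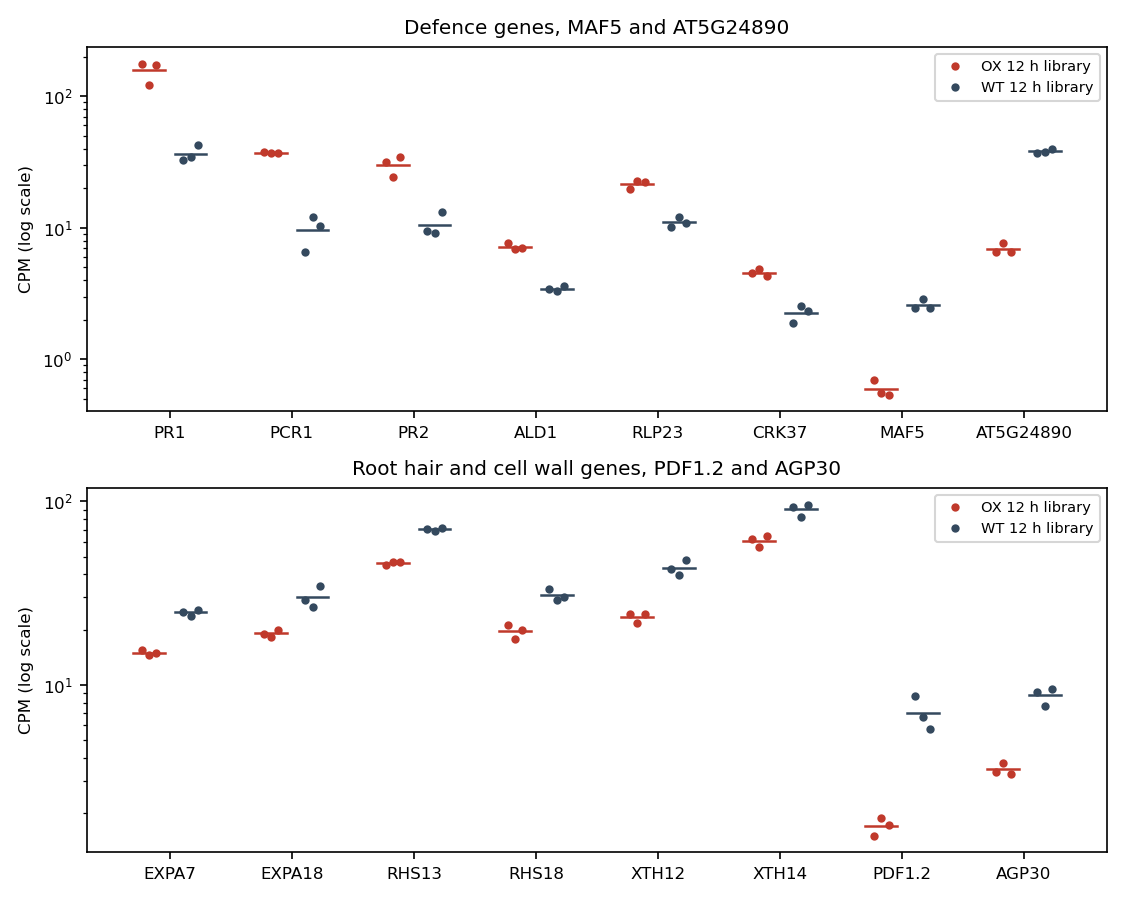
CPM on a log axis in each of the 3 OX and 3 WT libraries at 12 h, OX left of WT in each gene, with a line at the group mean. In the first row MAF5 and AT5G24890 are lower in OX and the other 6 genes higher; all 8 genes of the second row are lower in OX.

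The 12 h difference was set beside those at 0 h, 1 h and 6 h, which come from other libraries. OX and WT differed in 3072 genes at 0 h (14.6%), 1197 at 1 h (5.7%) and 319 at 6 h (1.52%). Of the 346 genes called at 12 h, 120 were also called at 0 h, which is 34.7% of the 12 h calls and 3.91% of the 0 h calls. At 1 h 92 were shared (26.6% and 7.69%) and at 6 h 91 (26.3% and 28.5%). The direction at 6 h was the same for all 91, 59 higher and 32 lower (of all genes, 0.857% were higher and 0.661% lower at 6 h), whereas at 0 h 15 genes higher at 12 h were lower, and 4 lower at 12 h were higher. At 1 h 4 genes higher at 12 h were lower, and 4 lower at 12 h were higher. At 12 h and at no other time 162 genes were called.

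At all 4 times 21 genes were called in the same direction, 18 higher and 3 lower in OX. PR1 had fold changes of 1.03, 3.00, 3.12 and 2.11 at 0 h, 1 h, 6 h and 12 h. PCR1 had 1.73, 2.35, 3.03 and 1.96. The 3 lower genes were AT5G24890 with -2.24, -2.68, -2.58 and -2.45, MAF5 with -3.11, -2.42, -2.41 and -2.12, and MAF4 with -0.98, -1.11, -0.88 and -0.97. These differences were thus present before the peptide was added. PR2, PNP-A, DLO1, CRK37, AT1G04280, AT3G10630, AT3G28510, AT3G61280 and AT5G10760 were also among the 18.

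In the edgeR test of the change in difference, the OX to WT difference at 12 h departed from that at 0 h for 1160 genes (5.52%), among them 81 of the 346. MLP328 was at -0.57 at 0 h, and its difference at 12 h minus that at 0 h was 1.65 ± 0.14 (SE, adjusted p = 6.5e-07). AT5G37990 was at -0.67 at 0 h (change 1.88 ± 0.16 SE, adjusted p = 6.5e-07), KIN1 at -0.73 (change 1.69 ± 0.26 SE, adjusted p = 0.00043) and AT5G52390 at -0.87 (change 2.44 ± 0.36 SE, adjusted p = 0.00022). All 4 had a negative fold change before the peptide and were higher in OX at 12 h. AT5G66985, of unknown function, was the reverse, at 1.51 at 0 h and -0.58 at 12 h (change -2.09 ± 0.19 SE, adjusted p = 9.8e-07). AT5G66985 passed in none of the fits that left out 1 library, with an adjusted p of up to 0.15. With the length trend removed its 12 h difference had an adjusted p of 0.075. DLO1 was higher at both times, by 1.85 at 0 h and 0.58 at 12 h (change -1.26 ± 0.22 SE, adjusted p = 0.0014).

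Against 1 h the difference changed for 665 genes (3.16%), among them 80 of the 346. EXPA7 was at 0.30 at 1 h (change -1.03 ± 0.18 SE, adjusted p = 0.0051) and EXPA18 at 0.24 (change -0.90 ± 0.17 SE, adjusted p = 0.0099). NAS4 was at 1.00 (change -1.43 ± 0.16 SE, adjusted p = 7.6e-05), PHT1;1 at 0.50 (change -0.82 ± 0.11 SE, adjusted p = 0.00081) and OPT3 at 0.44 (change -0.84 ± 0.13 SE, adjusted p = 0.0014). These wall and nutrient genes had positive fold changes at 1 h and were lower in OX at 12 h. EXPA7 and EXPA18 did not pass at 1 h (adjusted p = 0.2 and 0.28). At 0 h all were already negative, at -0.32, -0.28, -0.70, -0.22 and -0.24 in that order, and only NAS4 passed (adjusted p = 0.00014). For none did the 12 h difference depart from that at 0 h (smallest adjusted p = 0.19, EXPA7). DIN2 was higher in OX at 0 h (1.22) and 12 h, but at -1.51 at 1 h (change from 1 h 3.05 ± 0.33 SE, adjusted p = 4.7e-05). AT1G26390 and CRK37 were higher at both times, by 3.02 and 2.85 at 1 h, with changes of -2.04 ± 0.40 (SE, adjusted p = 0.011) and -1.81 ± 0.44 (SE, adjusted p = 0.029). The count of 665 was 196 without WT replicate 3, 240 without OX replicate 1, 301 without OX replicate 2, 238 without OX replicate 3, 422 without WT replicate 2, 94 without the 3 libraries of steep length trend, 426 with the length trend removed and 1423 with DESeq2.

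Against 6 h the difference changed for 4 genes (0.019%), LURP1, ECS1, AT1G19960 and PGAZAT, named after their values were seen. LURP1, a defence gene named for late upregulation by an oomycete, was at 2.4 at 6 h and had 115, 112 and 116 CPM in OX, against 91.4, 111 and 95.2 CPM in WT at 12 h (adjusted p = 0.63). ECS1 was at 1.42 at 6 h and 0.02 at 12 h, and AT1G19960 at 1.65 at 6 h and -0.05 at 12 h, neither passing at 12 h. PGAZAT, a polygalacturonase gene, was higher at both times, by 2.82 and 0.96. The changes were -2.20 ± 0.38 (SE, adjusted p = 0.047), -1.39 ± 0.23 (SE, adjusted p = 0.047), -1.69 ± 0.29 (SE, adjusted p = 0.047) and -1.85 ± 0.32 (SE, adjusted p = 0.047) in that order. Without any OX replicate, WT replicate 1 or WT replicate 3 there were 0 such genes, and without WT replicate 2 there were 3. At 12 h, PGAZAT passed with 1 library fewer only without OX replicate 2 or WT replicate 3 (otherwise adjusted p up to 0.13).

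**Figure D5:**
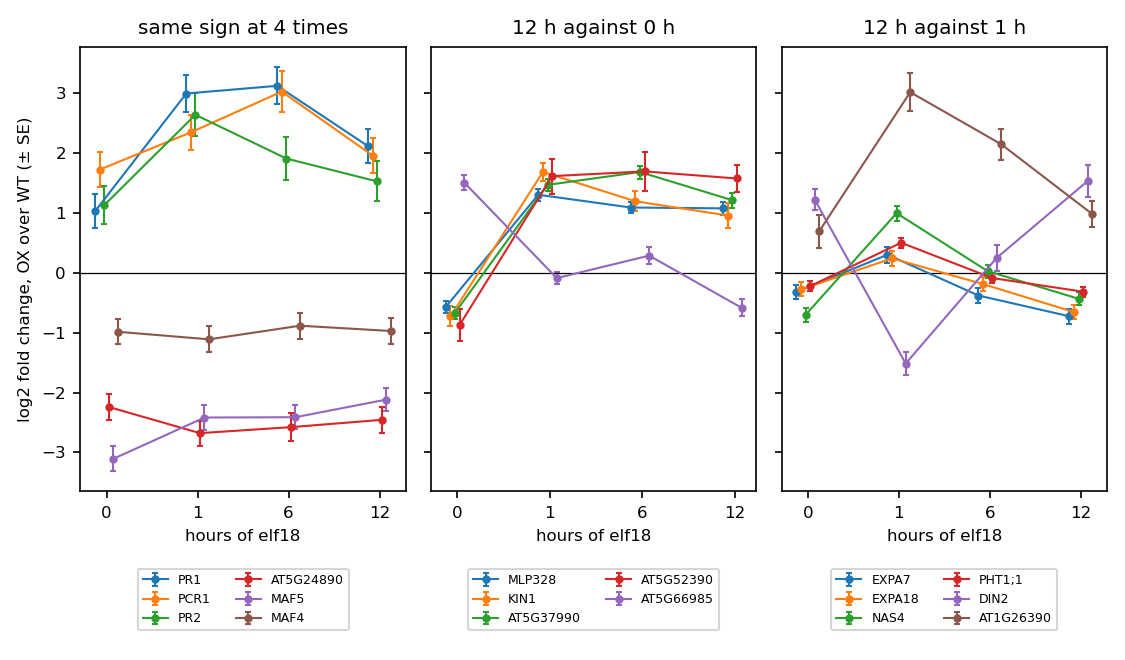
Log2 fold change of OX over WT with its SE at 0, 1, 6 and 12 h of elf18 (evenly spaced on the x axis, not to scale), 1 line per gene, in 3 panels. PR1, PCR1 and PR2 stay above 0 and AT5G24890, MAF5 and MAF4 below 0 at every time. MLP328, KIN1, AT5G37990 and AT5G52390 are below 0 at 0 h and above 0 at 12 h. EXPA7, EXPA18, NAS4 and PHT1;1 are above 0 at 1 h and below 0 at both 0 h and 12 h.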

How the data were processed

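Strand-specific libraries of polyadenylated RNA were read from a single end, with the 3 replicates of a condition multiplexed together, per the labels' protocols. Whole-number read counts per locus (1 column per library) and FPKM (1 column per group) were deposited by the authors, per the file headers. The submitters' processing notes list DESeq2, Cuffdiff, TopHat2 2.0.8 and Cufflinks 2.1.1, without saying what each did, and the TAIR10 genome build. How reads were counted, and whether by strand, is not given in the sources used here, so paralogs (CRKs, PALs, XTHs), overlapping genes and antisense partners are uncertain.

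CPM is reads of a gene scaled to library size. The counts were fitted with edgeR 4.0.16 (R 4.3.3, limma 3.58.1): 24 libraries, 8 group means, TMM, a minimum count of 10 in filterByExpr, and the quasi-likelihood test with Benjamini-Hochberg adjustment at 0.05. The difference between OX and WT at 12 h and its change from 0 h, 1 h and 6 h were tested. The procedure was tested on simulated data. P-values measure the spread between samples labelled as biological replicates, which would not hold a difference between multiplexed pools. FPKM served only as the authors' group value. Symbols, lengths and sequences are from RefSeq's TAIR10.1, which matched 21330 loci and left 77 unmatched; the count table holds no coordinates.

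The genes compared and the 38 lists were chosen with earlier results of these data known, and the 14 families after seeing the data. Genes were named by rule: the 12 higher and 12 lower calls of largest fold change with a mean log2 CPM of at least 1 and no overlap; the 6 of smallest adjusted p; up to 4 calls per list, or, with no call, its widest member with a mean log2 CPM of at least 1; PR1, PR2 and PR5; and the 4 widest changes against each earlier time. NPR1, ICS1, EDS1, EFR, FRK1, IRT1 and the CRKs beyond 4 were added after their values were seen. Alternatives were a replicate block, robust fitting, DESeq2 1.42.0, size factors by RLE, all loci unfiltered, single libraries left out, libraries of steep length trend left out, length trend removed, thinned counts and only the groups compared.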

Additional observations from a re-analysis of the deposited data

Results flagged for a closer look

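These genes stand here because their OX to WT difference at 12 h departed from that at an earlier time in the edgeR test, at an adjusted p under 0.05. Each value is the log2 difference at 12 h minus that at the earlier time. Against 0 h the change was positive for AT5G52390 (2.44), AT5G37990 (1.88), AT2G15780 (1.87), KIN1 (1.69), AT1G53540 (1.67), MLP328 (1.65), PUB54 (1.39), GSTU25 (1.35), CRK16 (1.19), SAG13 (1.12) and SGT1A (0.41). It was negative for AT5G66985 (-2.09), DLO1 (-1.26) and PAL2 (-0.39). Against 1 h the change was positive for DIN2 (3.05), LOV1 (0.62), CNGC20 (0.55) and SNC1 (0.50). It was negative for AT1G47395 (-2.28), AT1G47400 (-2.10), AT1G26390 (-2.04), CRK37 (-1.81), AT1G53540 (-1.51), NAS4 (-1.43), AT4G04745 (-1.30), DLO1 (-1.16), EXPA7 (-1.03), IAA19 (-0.92), EXPA18 (-0.90), OPT3 (-0.84), PHT1;1 (-0.82) and TMM (-0.70). The causes were not tested.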

How the results depend on the processing

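The 346 calls at 12 h (194 higher, 152 lower) became 749 (335 higher, 414 lower) with DESeq2, 562 (311 higher, 251 lower) with the replicate block, 1018 (417 higher, 601 lower) with only the groups compared, 199 (90 higher, 109 lower) without the 3 libraries whose length trend was steep, and 234 (129 higher, 105 lower) with counts thinned. Leaving out 1 library gave 79 to 146 calls, 52 to 82 higher and 27 to 64 lower. Chosen after seeing the data, OX replicates 1 and 3 summed gave 120 (65 higher, 55 lower), and the 12 h libraries alone with a replicate block gave 4316 (1931 higher, 2385 lower). RLE size factors, no filter, robust fitting and length trend removal gave 329 to 350 calls. The change against 0 h, 1160 genes, ranged from 687 to 880 with 1 library left out. The change against 1 h, 665 genes, became 1423 with DESeq2, 1110 with the replicate block, 94 without the steep libraries, 426 with the length trend removed, 381 thinned, 249 with OX replicates 1 and 3 summed, and 196 to 459 with 1 library left out. The change against 6 h, 4 genes, became 39 with DESeq2, 9 with only the groups compared, 2 with the length trend removed, 0 with robust fitting, thinning, the summed replicates or without the steep libraries, and 0 to 3 with 1 library left out. The causes were not tested. Same-numbered OX and WT libraries at 12 h deviated together with correlations of -0.005, 0.342 and 0.187. OX replicates 2 and 3 correlated best with their own number and OX replicate 1 did not. Replicate 3 was the smallest library in all 8 groups, at 18767661 to 23645600 counts, against 33714756 or more in every other library. The numbers thus mark at least a shared difference in depth, and whether they pair samples was not tested. The main fit had no replicate term, and with the replicate block all 346 calls were kept. Of 1309 values of named genes under alternatives, 972 kept their direction and side of the threshold, 314 no longer passed, 23 newly passed and 0 reversed.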
